A study of Mus musculus with 7 samples.

Results

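The genes described here encode the Wnt ligands, their Frizzled receptors, the Lrp5 and Lrp6 co-receptors and the secreted antagonists, 42 genes of the 18193 measured. They were chosen by symbol (Wnt, Fzd, Sfrp or Dkk followed by a digit, together with Frzb, Lrp5, Lrp6 and Wif1). They comprised 19 ligands, 10 Frizzleds, Fzd10os (an antisense transcript that the symbol rule also takes in), both co-receptors, 6 secreted proteins that bind Wnt ligands (Sfrp1, Sfrp2, Sfrp4, Sfrp5, Frzb and Wif1) and 4 Dickkopfs. Where a gene had several probe sets, the one with the highest mean level was used (25 of the 42 genes had several, 81 probe sets in all).

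RNA was measured on Affymetrix mouse expression arrays in 3 groups of cells from C57BL/6 mice (C57BL/6J in the protocols). The iHepSCs (2 arrays) were induced hepatic stem cells, made from MEFs with lentivirus that expressed Oct4 and Hnf4α from an SFFV vector, and were picked and grown as clones in HEP medium, to which the labels' protocol adds HGF and EGF; replicate 1 was at passage 3 and replicate 2 at passage 20. The pHeps (1 array) were primary hepatocytes from 6-week-old mice, isolated by collagenase perfusion and not reprogrammed; the labels' protocol names HEP medium for them, whereas the study's methods give a short plating in Williams' medium E before RNA isolation. The MEFs (4 arrays) were unreprogrammed mouse embryonic fibroblasts in DMEM. The study took 1 of its clones into detailed work and its array methods speak of clones, so that both iHepSC arrays may be 1 clone. Nothing in the labels or methods says that the MEF arrays came from separate cultures, and the p-values measure the spread between these arrays, which may be technical. Cell type and culture medium cannot be told apart in the comparisons of iHepSCs or pHeps with MEFs.

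MEF replicate 1 stood apart from the other MEF arrays, with a correlation over all probe sets of 0.960 to 0.961 with them. MEF replicates 2 to 4 correlated with each other at 0.997. For the 42 genes it differed from the mean of MEF replicates 2 to 4 by a median of 0.36 on the log2 scale, and 29 of them were higher on it than on any other MEF array. Of 13 hepatocyte markers, 10 were higher in iHepSCs and 12 in pHeps than in MEFs. Alb was at 13.74 and 14.39 on the iHepSC arrays and 15.13 on the pHep array, against 5.35 to 5.89 on the MEF arrays (log2 levels), and Col1a1 was at 6.44 and 6.34, at 8.55, and at 12.97 to 13.97 on the same arrays. Of the fibroblast markers, 16 of 17 were lower in iHepSCs and 15 of 17 were lower in pHeps than in MEFs. Among Kupffer cell and macrophage markers, pHeps were above MEFs for 9 of 12, with a summed level (log2 of the summed linear levels) of 14.52 on the pHep array and 11.05 to 12.69 on the MEF arrays. Of 14 endothelial cell markers, 1 was higher and 2 were lower in pHeps than in MEFs, and 7 were under 6 on the pHep array. They summed to 11.47 on the pHep array and 10.98 to 11.11 on the MEF arrays. Among those under 6, Cdh5, Pecam1 and Lyve1 were at 5.36, 4.77 and 4.63 on the pHep array. They were picked among the dim ones, and the remaining markers of the 14 were at 6 or above there. The part of endothelial cells in the pHep levels below was not tested.

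Wnt proteins are lipid-modified secreted ligands that bind Frizzled receptors. With an Lrp5 or Lrp6 co-receptor they stabilise beta-catenin, which drives target genes together with TCF/LEF factors, and some ligands act through Frizzleds without beta-catenin. In the liver, Wnt ligands from endothelial cells near the central vein maintain the perivenous programme of hepatocytes, and Sfrp, Frzb and Wif1 proteins bind the ligands while Dickkopfs act on the co-receptors.

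Values are log2 levels, so that a difference of 1 is a doubling. A gene was called different at a Benjamini-Hochberg adjusted p below 0.05 over all 18193 genes in limma. Of the 42 genes, 33 had a level of at least 6 on at least 1 array, and 9 (Dkk1, Dkk4, Wif1, Wnt1, Wnt2b, Wnt3, Wnt5b, Wnt8a and Wnt8b) stayed below 6 on every array. The deposited values carry no detection call, so a low level says only that the probe set was dim.

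In iHepSCs against MEFs, 6 of the 42 genes were higher and 11 were lower, while 25 missed the threshold. This was 40.5% of them, beside 31.6% of all genes (18.2% higher and 13.4% lower). The higher genes were the ligands Wnt4 and Wnt7b, the receptors Fzd5 and Fzd6 and both co-receptors. The lower genes were the ligands Wnt2, Wnt5a, Wnt5b and Wnt9a, the receptor Fzd2, the antagonists Sfrp1, Sfrp2, Sfrp4 and Frzb, and the Dickkopfs Dkk2 and Dkk3. No antagonist or Dickkopf was called higher. The median difference of the 42 genes was -0.12, beside 0.01 for all genes; with each array centred on Gapdh it was 0.37, beside 0.50 for all genes, so that its sign depends on the scaling while its place below the median of all genes was as before. All iHepSC arrays lay above all MEF arrays for 7 of the 42 genes (26.9% of all genes) and below them for 17 (23.7% of all genes). Without MEF replicate 1, 8 genes were called higher and 15 lower, beside 55.8% of all genes called in either direction.

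In pHeps against MEFs, 4 genes were higher (Wnt4, Wnt10a, Fzd5 and Lrp5) and 13 were lower (Wnt2, Wnt5a, Wnt5b, Wnt10b, Wnt11, Fzd2, Fzd7, Fzd10, Sfrp1, Sfrp2, Sfrp4, Dkk2 and Dkk3). That was 40.5% of the members, beside 30.3% of all genes (14.8% higher and 15.5% lower), and their median difference was -0.36, beside -0.13 for all genes. The pHep array lay above all MEF arrays for 6 of the 42 genes (26.9% of all genes) and below them for 25 (45.7% of all genes). Both comparisons share the MEF arrays. The single pHep array was assumed to vary like the other groups. Without MEF replicate 1, 8 genes were higher and 20 were lower, beside 58.6% of all genes called. With any of MEF replicates 2 to 4 left out, only 2 were higher and 9 to 10 lower, beside 21.3% to 22.1% of all genes called.

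With each array centred on Gapdh, 3 of the genes called in iHepSCs against MEFs missed the threshold, namely Sfrp4 (-0.23, adjusted p = 0.42 in limma), Wnt5b (-0.43, adjusted p = 0.28) and Wnt9a (-1.20, adjusted p = 0.12). In pHep against MEFs 9 did so, namely Wnt5b, Wnt10b, Wnt11, Fzd5, Fzd7, Fzd10, Lrp5, Sfrp1 and Sfrp4 (adjusted p = 0.0664 to 0.432). In iHepSCs against pHep Wnt11 and Frzb did so (adjusted p = 0.0673 and 0.147). Calls over all genes fell as well, to 30.8%, 16% and 12.4% in these comparisons, in place of 31.6%, 30.3% and 17.1%.

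**Figure D1:**
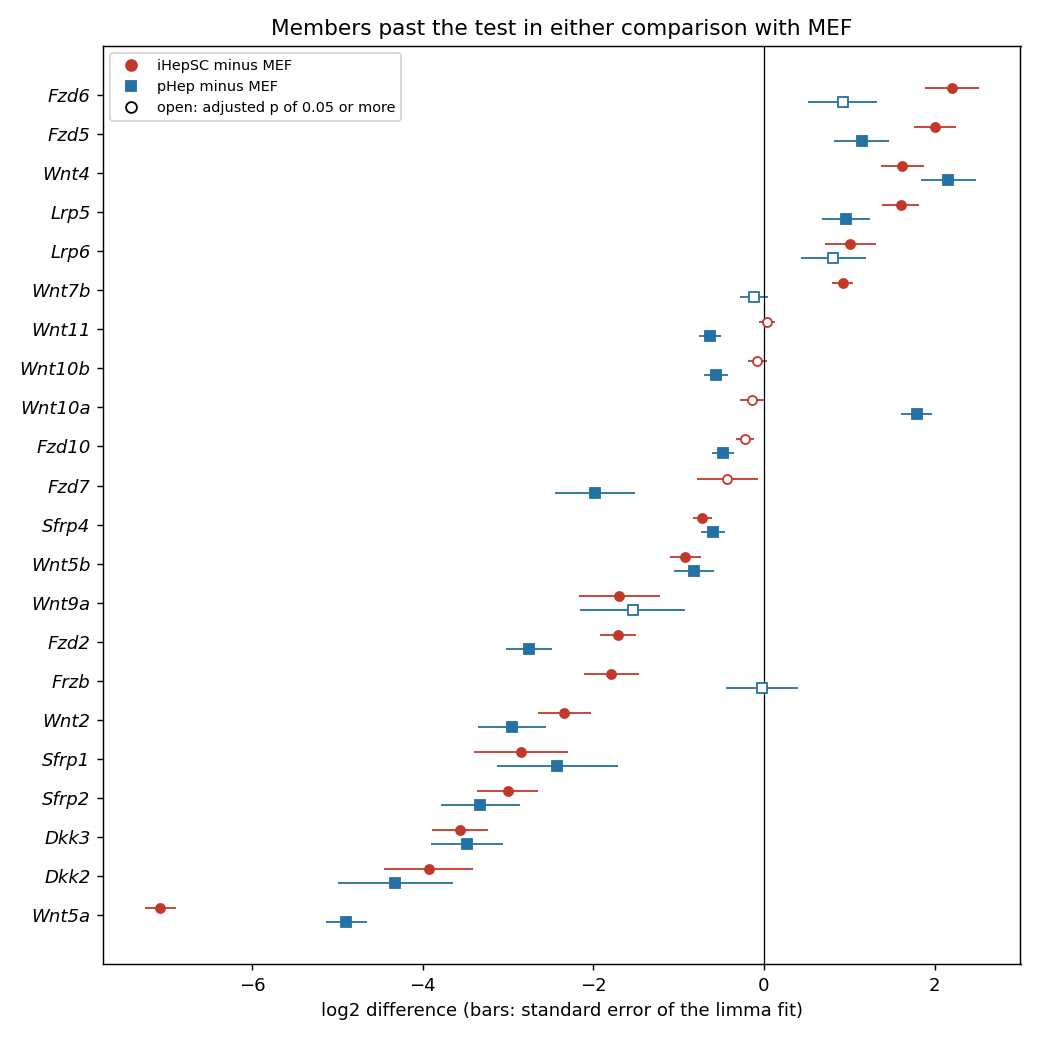
Log2 differences, iHepSC minus MEF (red circles) and pHep minus MEF (blue squares), of the 22 genes called in either comparison, with the standard error of the limma fit as bars; filled symbols passed an adjusted p of 0.05. Wnt5a lies lowest in both comparisons, Fzd6, Fzd5, Wnt4, Lrp5 and Lrp6 lie above 0 in both, and Wnt10a lies above 0 in pHeps alone.

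Wnt5a, a ligand known mainly for signalling without beta-catenin, had the largest difference among the 42 genes in both comparisons with MEFs. It was at 4.01 and 3.96 on the iHepSC arrays, 6.17 on the pHep array and 11.45, 10.94, 10.85 and 11.00 on the MEF arrays. No iHepSC or pHep value came near the MEF range, and the 2 iHepSC arrays lay below the pHep array. The difference was -7.07 ± 0.18 (SE; 135-fold lower, adjusted p = 2.6e-06 in limma) in iHepSCs and -4.89 ± 0.24 (29.7-fold lower, adjusted p = 4.3e-05) in pHeps. Between iHepSCs and pHeps it was -2.18 ± 0.26 (adjusted p = 0.0024), although this last difference was -0.77 (adjusted p not below 0.05) with all probe sets of the gene averaged. Of the 4 Wnt5a probe sets, 3 were called lower in iHepSCs than in MEFs, and the other one was dim on every array, at 5.65 to 5.93.

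Wnt2, a ligand made in adult liver by endothelial cells, was at 5.34 and 5.43 on the iHepSC arrays, 4.77 on the pHep array and 8.44, 7.48, 7.39 and 7.59 on the MEF arrays. The groups did not overlap with MEFs. It was lower by 5.06-fold in iHepSCs (-2.34 ± 0.31, adjusted p = 0.0021 in limma) and by 7.76-fold in pHeps (-2.96 ± 0.40, adjusted p = 0.0029). Wnt9a was at 6.33 and 6.13 on the iHepSC arrays, 6.39 on the pHep array and 9.07, 7.67, 7.50 and 7.46 on the MEF arrays. All MEF values were higher than the others, and MEF replicate 1 was the highest. Its difference of -1.69 ± 0.48 in iHepSCs (adjusted p = 0.040 in limma) was not called once either iHepSC array (adjusted p = 0.16 and 0.215) or any of MEF replicates 2 to 4 (adjusted p = 0.0602 to 0.079) was left out, and its second probe set gave -0.23. In pHeps the Wnt9a difference of -1.54 ± 0.62 did not pass the test (adjusted p = 0.11).

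Wnt5b, a close relative of Wnt5a, had levels under 6 on every array: 4.26 and 4.71 on the iHepSC arrays, 4.58 on the pHep array and 5.69, 5.29, 5.36 and 5.29 on the MEF arrays. It was lower in iHepSCs (-0.92 ± 0.18, adjusted p = 0.011 in limma) and in pHeps (-0.82 ± 0.23, adjusted p = 0.043). The iHepSC call was lost without iHepSC replicate 1 (adjusted p = 0.0855), and the pHep call was lost without any 1 of MEF replicates 2 to 4 (adjusted p = 0.0758 to 0.0898).

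Wnt4, a ligand with roles in epithelial tubule formation in the kidney, ran the other way. It was at 10.49 and 10.80 on the iHepSC arrays, 11.18 on the pHep array and 9.56, 8.92, 8.88 and 8.72 on the MEF arrays. Every iHepSC and pHep value lay above the highest MEF value. The difference was 1.62 ± 0.25 (3.08-fold, adjusted p = 0.0041 in limma) in iHepSCs and 2.16 ± 0.32 (4.47-fold, adjusted p = 0.0045) in pHeps, and the difference between iHepSCs and pHeps was -0.54 ± 0.36 (adjusted p = 0.38). Without iHepSC replicate 2 the adjusted p for iHepSCs was 0.0508.

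Wnt7b and Wnt10a differed between the cell types with hepatic markers. Wnt7b, a ligand of developing epithelia such as the lung and kidney collecting duct, was at 8.91 and 8.73 on the iHepSC arrays, 7.78 on the pHep array and 8.08, 7.89, 7.79 and 7.83 on the MEF arrays. Only the iHepSC arrays stood above the MEF range. The difference was 0.92 ± 0.12 against MEFs (adjusted p = 0.0022 in limma) and 1.04 ± 0.17 against pHep (adjusted p = 0.010), and the difference from pHep had an adjusted p of 0.0591 without iHepSC replicate 1.

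Wnt10a, a ligand of skin and tooth development, was at 7.30 and 7.44 on the iHepSC arrays, 9.30 on the pHep array and 7.25, 7.57, 7.69 and 7.52 on the MEF arrays. The pHep array alone was high, and the iHepSC arrays lay within the MEF range. The level was 3.46-fold higher in pHep than in MEFs (1.79 ± 0.18, adjusted p = 0.0010 in limma), and that of iHepSCs was below pHep by 3.81-fold (-1.93 ± 0.20, adjusted p = 0.0015). The iHepSC difference from MEFs was -0.14 ± 0.14 (adjusted p = 0.52). The macrophage markers were also high on the pHep array, as given above, and their part in the Wnt10a level was not tested.

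Wnt11 and Wnt10b were low on the pHep array by a small margin. Wnt11 was at 7.28 and 7.14 on the iHepSC arrays, 6.54 on the pHep array and 7.12 to 7.27 on the MEF arrays. It was lower in pHep than in MEFs (-0.63 ± 0.13, adjusted p = 0.013 in limma) and higher in iHepSCs than in pHep (0.67 ± 0.14, adjusted p = 0.023), and the second of these was lost when either iHepSC array or any of MEF replicates 2 to 4 was left out (adjusted p = 0.0515 to 0.104). Wnt10b was at 6.79 on both iHepSC arrays, 6.30 on the pHep array and 6.75 to 6.98 on the MEF arrays. Its difference in pHep of -0.56 ± 0.14 (adjusted p = 0.027) was likewise lost when 1 of these arrays was left out (adjusted p = 0.0533 to 0.0651).

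Of the 19 ligands, 10 (Wnt1, Wnt2b, Wnt3, Wnt3a, Wnt6, Wnt7a, Wnt8a, Wnt8b, Wnt9b and Wnt16) passed neither comparison with MEFs. Wnt6 was at 7.23 and 7.35 on the iHepSC arrays, 7.06 on the pHep array and 6.94 to 7.30 on the MEF arrays, and Wnt7a was at 7.84 and 7.86, at 7.60, and at 7.75 to 8.09. Neither gene had a group that stood well apart. Wnt9b, which is made in adult liver by endothelial cells as Wnt2 is, was at 6.49 and 6.52 on the iHepSC arrays, 6.14 on the pHep array and 6.12 to 6.39 on the MEF arrays. Wnt16 was at 5.62 and 5.73 on the iHepSC arrays, 5.18 on the pHep array and 8.19, 6.07, 5.98 and 6.01 on the MEF arrays, and without MEF replicate 1 it was lower in iHepSCs (-0.35, adjusted p = 0.0087 in limma) and in pHep (-0.84, adjusted p = 0.00038).

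**Figure D2:**
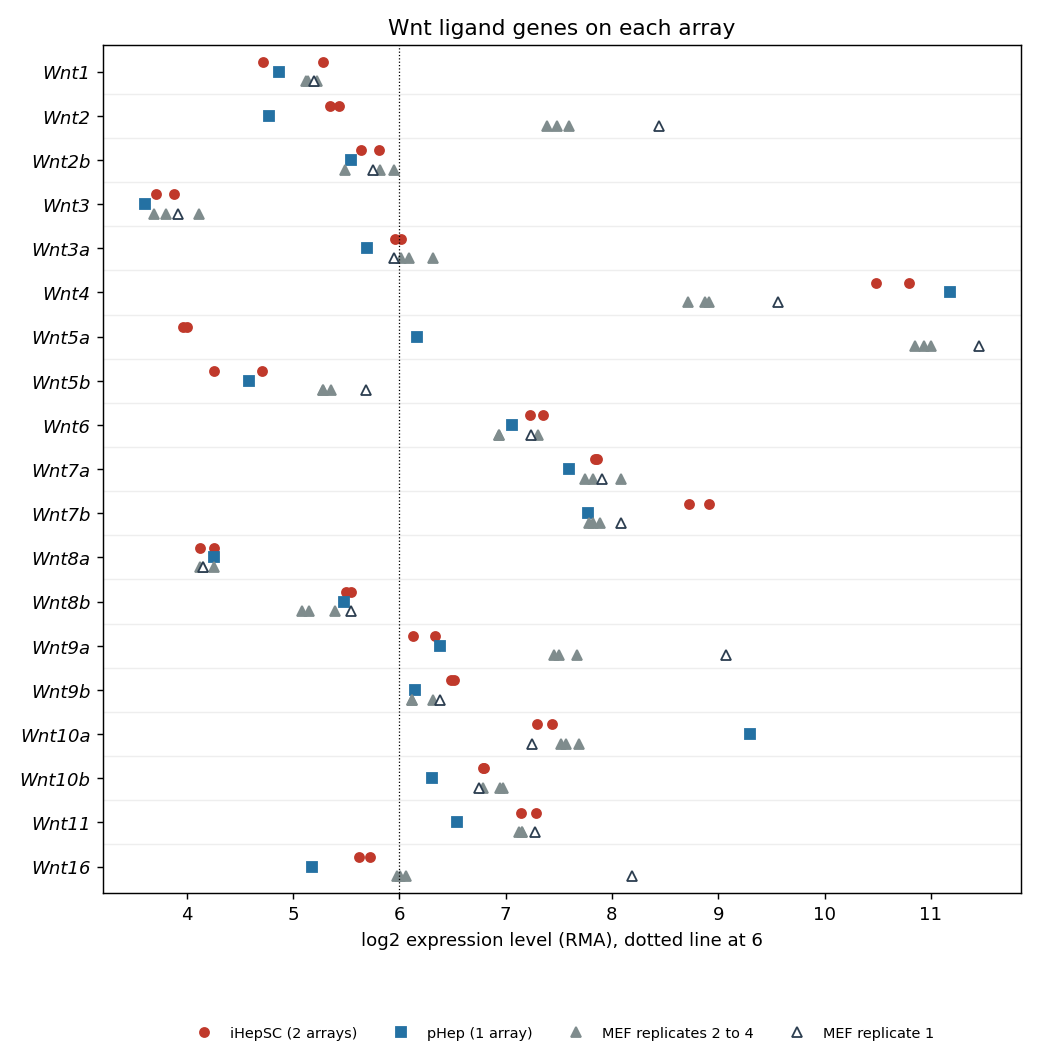
Log2 level of the 19 Wnt ligand genes on each array: iHepSC (red circles, 2 arrays), pHep (blue square, 1 array) and MEF (grey triangles, replicates 2 to 4; open triangle, replicate 1). The dotted line is at 6. Wnt5a, Wnt2 and Wnt9a are higher on all MEF arrays than on the iHepSC and pHep arrays, Wnt4 is lower on them, and Wnt16 is high on MEF replicate 1 alone (8.19).

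Fzd5 and Fzd6 were the receptors called higher in iHepSCs on the probe set used for each gene. Fzd5, a receptor with a central role in the intestinal epithelium and the eye, was at 9.82 and 10.05 on the iHepSC arrays, 9.08 on the pHep array and 8.49, 7.76, 7.73 and 7.75 on the MEF arrays. The 3 groups did not overlap. It was 4.01-fold higher in iHepSCs (2.01 ± 0.25, adjusted p = 0.0016 in limma) and 2.21-fold higher in pHep (1.14 ± 0.32, adjusted p = 0.041). The pHep call was lost when either iHepSC array or any of MEF replicates 2 to 4 was left out (adjusted p = 0.0791 to 0.0907). The second Fzd5 probe set differed by -0.11 in iHepSCs and -0.41 in pHep, and neither passed the test.

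Fzd6, a receptor of planar cell polarity, was at 10.96 and 10.97 on the iHepSC arrays, 9.68 on the pHep array and 9.50, 8.58, 8.44 and 8.53 on the MEF arrays. The iHepSC arrays stood above all others, and the pHep array was just above MEF replicate 1. The difference was 2.20 ± 0.31 (4.61-fold, adjusted p = 0.0029 in limma) in iHepSCs and 0.92 ± 0.40 (adjusted p = 0.13) in pHep. Its other probe sets gave 0.66 and 0.16 in iHepSCs, and neither passed the test. In pHep against MEFs they gave -1.02 (adjusted p = 0.053 in limma over all probe sets) and -0.07, so that the direction there depends on the probe set. In iHepSCs against pHep they gave 1.68, which was called (adjusted p = 0.021), and 0.23, which was not.

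Fzd2 fell in both. It was at 8.60 and 8.86 on the iHepSC arrays, 7.69 on the pHep array and 10.83, 10.53, 10.21 and 10.20 on the MEF arrays. The difference was -1.71 ± 0.21 (3.28-fold lower, adjusted p = 0.0016 in limma) in iHepSCs and -2.75 ± 0.27 (6.75-fold lower, adjusted p = 0.00085) in pHep, and it was called in all 17 alternative fits. Fzd7, a receptor expressed in many stem cells, was at 9.86 and 10.40 on the iHepSC arrays, 8.58 on the pHep array and 11.36, 10.25, 10.29 and 10.34 on the MEF arrays. Here the iHepSC and MEF arrays overlapped (-0.43 ± 0.36, adjusted p = 0.43 in limma) and only the pHep array was low (-1.98 ± 0.47, adjusted p = 0.023). Fzd10 differed little, at 7.21 and 7.16 on the iHepSC arrays, 6.93 on the pHep array and 7.27 to 7.52 on the MEF arrays. Its call in pHep (-0.48 ± 0.13, adjusted p = 0.041) was lost when either iHepSC array or any of MEF replicates 2 to 4 was left out (adjusted p = 0.0515 to 0.0908).

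Fzd1, Fzd3, Fzd4, Fzd8 and Fzd9 passed neither comparison with MEFs on the probe set used for each gene. Fzd4 was at 8.59 and 8.74 on the iHepSC arrays, 7.13 on the pHep array and 6.52, 8.74, 8.66 and 8.67 on the MEF arrays. MEF replicate 1 was the lowest of all arrays here. Without it, Fzd4 was lower in pHep than in MEFs (-1.57, adjusted p = 2.4e-05 in limma), and higher in iHepSCs than in pHep (1.54, adjusted p = 6.3e-05). A second Fzd4 probe set was at 8.79 and 8.88 on the iHepSC arrays, 6.75 on the pHep array and 7.10 to 7.68 on the MEF arrays, and with all arrays it was called higher in iHepSCs than in MEFs (1.44, adjusted p = 0.0020 over all probe sets) and than in pHep (2.09, adjusted p = 0.0027). Fzd1 was at 9.37 and 9.70 on the iHepSC arrays, 9.11 on the pHep array and 12.09, 10.30, 10.22 and 10.21 on the MEF arrays, and without MEF replicate 1 it was lower in iHepSCs (-0.71, adjusted p = 0.0014) and in pHep (-1.13, adjusted p = 0.00045). The other Fzd1 probe set was called lower with all arrays, in iHepSCs (-1.24, adjusted p = 0.040) and in pHep (-1.76, adjusted p = 0.026).

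Fzd3 was at 6.69 and 6.38 on the iHepSC arrays, 8.29 on the pHep array and 8.96, 7.39, 7.21 and 7.56 on the MEF arrays. The iHepSC arrays were the lowest and the pHep array was inside the MEF range. The chosen probe set did not pass (-1.25 ± 0.50, adjusted p = 0.11 in limma), whereas 3 of its other 5 probe sets were called lower in iHepSCs, with differences of -0.89, -1.39 and -1.23.

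The co-receptors were called higher in iHepSCs on the probe set used for each gene. Lrp5 was at 7.16 and 6.86 on the iHepSC arrays, 6.37 on the pHep array and 5.85, 5.28, 5.12 and 5.40 on the MEF arrays. No group overlapped another. The difference was 1.60 ± 0.22 (3.03-fold, adjusted p = 0.0025 in limma) in iHepSCs, called in all 17 alternative fits, and 0.96 ± 0.28 (adjusted p = 0.048) in pHep, where it was lost when either iHepSC array or any of MEF replicates 2 to 4 was left out (adjusted p = 0.0832 to 0.104).

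Lrp6 was at 10.00 and 10.03 on the iHepSC arrays, 9.81 on the pHep array and 9.68, 8.86, 8.63 and 8.82 on the MEF arrays. The difference of 1.01 ± 0.29 in iHepSCs (adjusted p = 0.044 in limma) was lost when either iHepSC array or any of MEF replicates 2 to 4 was left out (adjusted p = 0.0974 to 0.207). The second Lrp6 probe set went the other way, with 6.98 and 7.03 on the iHepSC arrays, 8.47 on the pHep array and 7.20 to 7.58 on the MEF arrays, a difference of -0.41 in iHepSCs (adjusted p = 0.066 over all probe sets). The direction of Lrp6 in iHepSCs therefore depends on the probe set read.

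**Figure D3:**
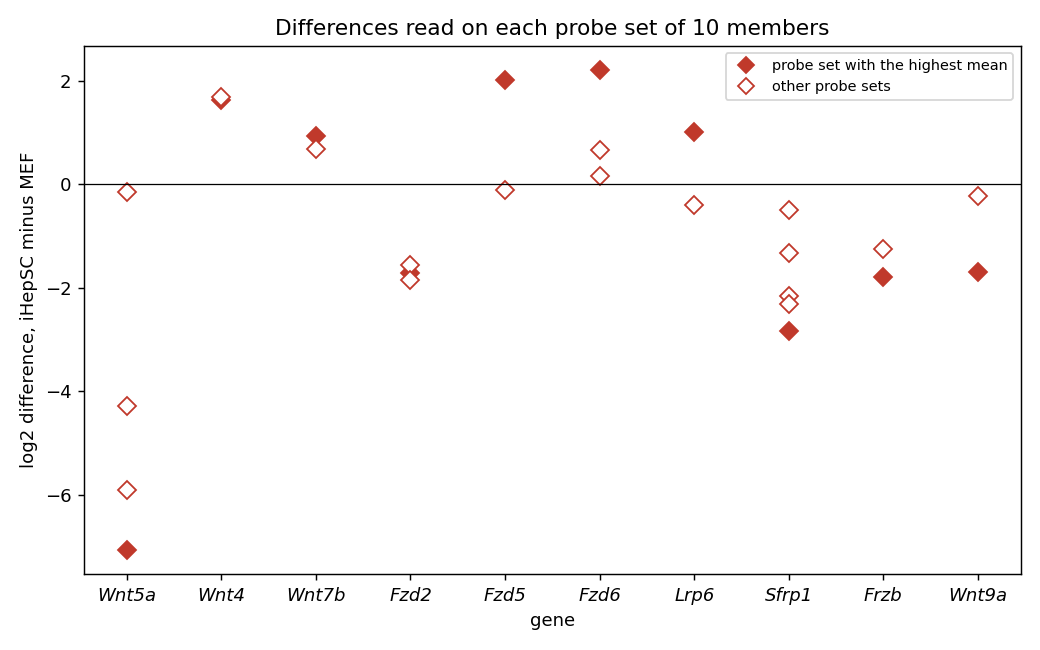
Log2 difference, iHepSC minus MEF, on each probe set of 10 genes; filled diamonds mark the probe set with the highest mean, which the other results use, and open diamonds the remaining ones. The probe sets of Wnt4, Wnt7b, Fzd2 and Frzb lie on 1 side of 0, whereas Fzd5 and Lrp6 have a probe set on each side.

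Dkk2 and Dkk3 were the Dickkopfs that changed. Dkk2, a ligand of Lrp5 and Lrp6, was at 4.94 and 5.09 on the iHepSC arrays, 4.62 on the pHep array and 10.21, 8.42, 8.66 and 8.49 on the MEF arrays. The iHepSC and pHep values lay far below the lowest MEF value. The difference was -3.93 ± 0.52 (15.2-fold lower, adjusted p = 0.0022 in limma) in iHepSCs and -4.32 ± 0.67 (20.0-fold lower, adjusted p = 0.0052) in pHep. Dkk3, a divergent member of the family, was at 5.67 and 5.34 on the iHepSC arrays, 5.59 on the pHep array and 9.82, 8.80, 8.85 and 8.79 on the MEF arrays. It was 11.8-fold lower in iHepSCs (-3.56 ± 0.33, adjusted p = 0.00046) and 11.1-fold lower in pHep (-3.48 ± 0.42, adjusted p = 0.0020). Dkk1 and Dkk4 were below 6 on all arrays, and neither passed a comparison.

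Sfrp1 and Sfrp2, secreted proteins with a Frizzled-like domain that binds Wnt ligands, were also higher in MEFs. Sfrp2 was at 5.09 and 5.08 on the iHepSC arrays, 4.76 on the pHep array and 8.91, 8.05, 7.70 and 7.68 on the MEF arrays. It was 8.02-fold lower in iHepSCs (-3.00 ± 0.36, adjusted p = 0.0014 in limma) and also lower in pHep (-3.32 ± 0.46, adjusted p = 0.0034). Sfrp1 was at 6.00 and 6.04 on the iHepSC arrays, 6.44 on the pHep array and 10.20, 8.57, 8.34 and 8.35 on the MEF arrays. For neither gene did the iHepSC or pHep arrays overlap the MEF arrays. The Sfrp1 difference was -2.84 ± 0.55 (adjusted p = 0.0099) in iHepSCs, with an adjusted p of 0.0782 or 0.0798 without either iHepSC array, and -2.43 ± 0.71 (adjusted p = 0.047) in pHep, lost when either iHepSC array or any of MEF replicates 2 to 4 was left out (adjusted p = 0.0698 to 0.0938).

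Frzb, another Wnt-binding antagonist, was at 5.29 and 4.75 on the iHepSC arrays, 6.78 on the pHep array and 7.39, 6.97, 6.35 and 6.52 on the MEF arrays. On the probe set used, the iHepSC arrays alone were low, and the pHep array was inside the MEF range. The difference from MEFs was -1.79 ± 0.32 (3.45-fold lower, adjusted p = 0.0078 in limma) in iHepSCs, which was not called without iHepSC replicate 2 (adjusted p = 0.0824), and -0.03 ± 0.42 in pHep. Against pHep, iHepSCs were lower (-1.76 ± 0.46, adjusted p = 0.049), a call that was lost when either iHepSC array or any of MEF replicates 2 to 4 was left out (adjusted p = 0.0613 to 0.191) while the difference was -0.03 on the second probe set. That second Frzb probe set was at 3.92 and 3.87 on the iHepSC arrays, 3.92 on the pHep array and 4.68 to 5.31 on the MEF arrays. On it Frzb was also called lower in pHep than in MEFs (-1.22, adjusted p = 0.019 in limma over all probe sets). Whether Frzb was lower in pHep therefore depends on the probe set read. Sfrp4 was at 7.05 and 7.02 on the iHepSC arrays, 7.15 on the pHep array and 7.64 to 7.90 on the MEF arrays. It was lower in iHepSCs (-0.72 ± 0.11, adjusted p = 0.0037) and in pHep (-0.60 ± 0.14, adjusted p = 0.023; 0.0519 without either iHepSC array). Both Sfrp4 calls were lost on Gapdh centring, as given above. Sfrp5 and Wif1 passed neither comparison.

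**Figure D4:**
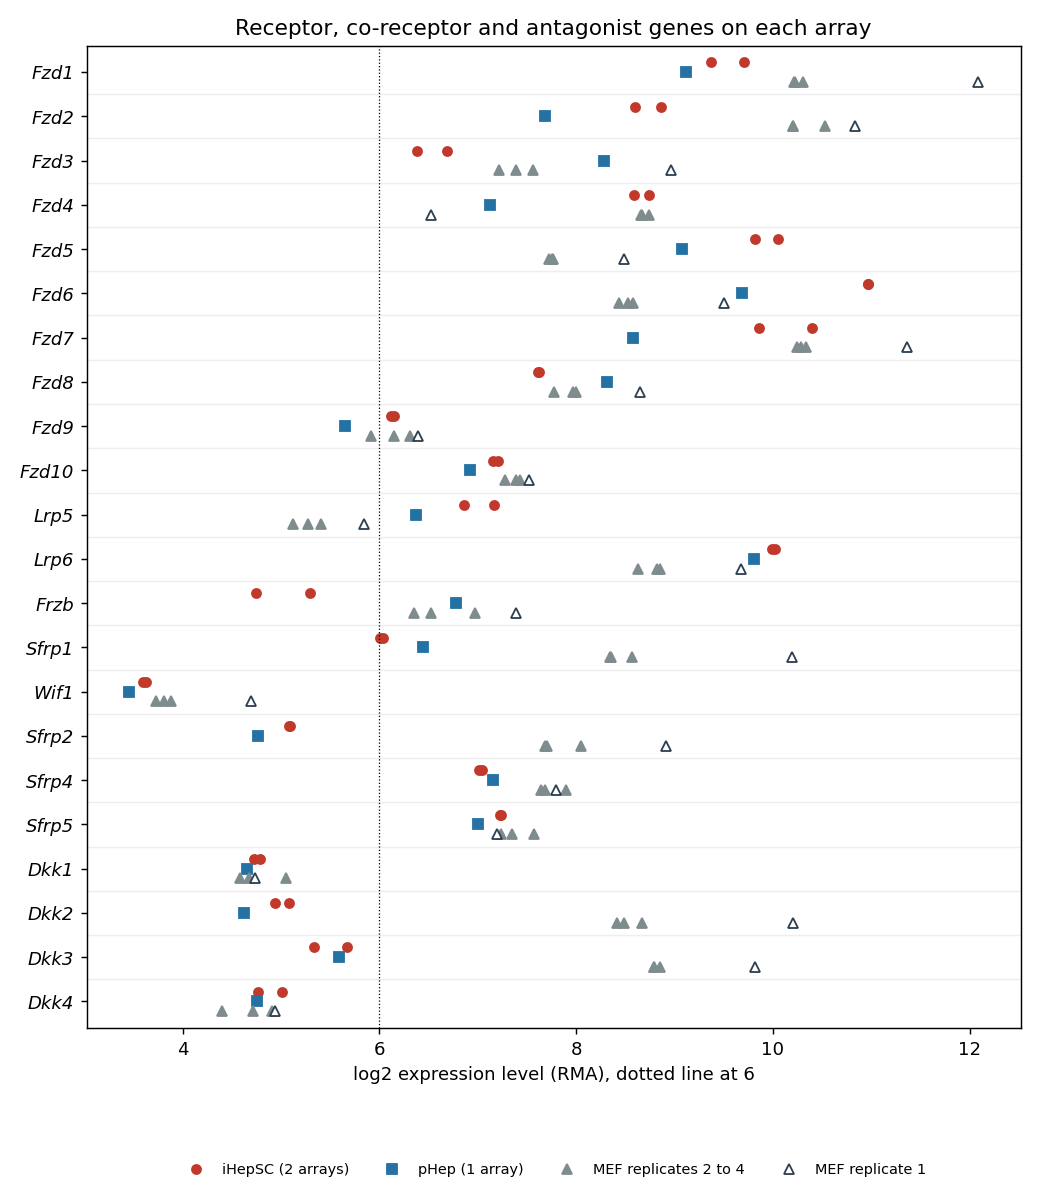
Log2 level of the Frizzled, co-receptor, secreted antagonist and Dickkopf genes on each array, with symbols as for the ligands and a dotted line at 6. Dkk2, Dkk3, Sfrp1 and Sfrp2 are at 4.62 to 6.44 on the iHepSC and pHep arrays and at 7.68 to 10.21 on the MEF arrays, whereas Fzd5, Fzd6, Lrp5 and Lrp6 are higher on every iHepSC array than on any MEF array.

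Of the 42 genes, 27 had promoters in the RefSeq table used (30 promoters, GRCm38.p6, each from 250 bases before to 50 bases after a start site). The promoters of Dkk2 and Sfrp2 are shown because they are the genes with a promoter there that fell most, and those of Frzb and Wnt5b, chosen after their values were seen, because they fell and hold a TCF/LEF core. Capitals mark the letters of a motif that was searched on both strands: CTTTGA (the TCF/LEF core), ATGCAAA (the start of the Oct4 octamer) or CAAAGTC (the start of the Hnf4α element). Dkk2 (chr3:132085042-132085341, plus strand) holds none of them. Sfrp2 (chr3:83766071-83766370, plus strand) holds the Oct4 letters on the opposite strand. Frzb (chr2:80447347-80447646, minus strand) holds the TCF/LEF letters on the opposite strand. The Wnt5b promoter shown (chr6:119449337-119449636, minus strand) holds the TCF/LEF letters on its own strand. The other Wnt5b promoters of the table (chr6:119467162-119467461 and chr6:119544298-119544597, minus strand) hold none of the motifs and are not shown.
Dkk2: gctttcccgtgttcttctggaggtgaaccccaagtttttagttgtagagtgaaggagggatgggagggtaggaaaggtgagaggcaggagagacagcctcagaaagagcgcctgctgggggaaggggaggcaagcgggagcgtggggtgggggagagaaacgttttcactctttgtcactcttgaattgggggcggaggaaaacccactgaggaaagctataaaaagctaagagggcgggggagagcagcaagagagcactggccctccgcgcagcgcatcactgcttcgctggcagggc
Sfrp2: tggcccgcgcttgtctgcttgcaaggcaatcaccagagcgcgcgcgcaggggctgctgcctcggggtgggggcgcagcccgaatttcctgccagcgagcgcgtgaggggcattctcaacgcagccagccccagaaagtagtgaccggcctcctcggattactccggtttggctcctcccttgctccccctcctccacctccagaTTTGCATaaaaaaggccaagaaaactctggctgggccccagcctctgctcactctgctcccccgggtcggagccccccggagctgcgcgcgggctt
Frzb: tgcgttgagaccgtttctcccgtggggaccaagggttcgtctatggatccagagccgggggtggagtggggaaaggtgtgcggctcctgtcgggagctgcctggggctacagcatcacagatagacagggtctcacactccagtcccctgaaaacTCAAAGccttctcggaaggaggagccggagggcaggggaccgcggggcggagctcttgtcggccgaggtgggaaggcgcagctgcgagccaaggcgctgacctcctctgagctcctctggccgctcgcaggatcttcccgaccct
Wnt5b: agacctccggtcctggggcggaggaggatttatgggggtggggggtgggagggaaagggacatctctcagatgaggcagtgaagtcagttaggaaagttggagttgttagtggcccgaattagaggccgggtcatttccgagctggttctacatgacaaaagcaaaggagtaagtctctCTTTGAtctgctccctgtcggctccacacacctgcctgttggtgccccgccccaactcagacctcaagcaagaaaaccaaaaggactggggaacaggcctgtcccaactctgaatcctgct

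The TCF/LEF letters were in 5 of the 30 promoters (16.7%), those of Dkk1, Frzb, Fzd1, Wnt5b and Wnt11, and in 16% of all 32851 promoters of the table. The Oct4 letters were in that of Sfrp2 only (3.33%, beside 4.63% of all), and the Hnf4α letters in those of Dkk1 and Wnt3 (6.67%, beside 4.44% of all). A match is a match of letters and not a measured binding site.

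In iHepSCs against pHep, 2 of the 42 genes were higher (Wnt7b and Wnt11) and 3 were lower (Wnt5a, Wnt10a and Frzb). This was 11.9%, beside 17.1% of all genes (9.26% higher and 7.89% lower), and the median difference of the 42 genes was 0.23, beside 0.15 for all genes. These calls rest on 1 pHep array. Without MEF replicate 1, 11 genes were higher and 7 lower, beside 42.7% of all genes called. The higher ones included Fzd7 (1.55, adjusted p = 0.0012 in limma), Fzd6 (1.28, adjusted p = 0.00013) and Fzd2 (1.04, adjusted p = 0.0037), which had adjusted p of 0.098, 0.11 and 0.065 with all arrays.

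Between passage 20 and passage 3 of the iHepSCs, with 1 array each and so no test, the 42 genes differed by a median of 0.01 and a median size of 0.13 on the log2 scale. The difference exceeded 0.5 in size for 3 genes. Frzb was at 4.75 at passage 20 and 5.29 at passage 3, Fzd7 was at 10.40 and 9.86, and Wnt1, which was dim on every array, was at 5.28 and 4.72. Wnt5a, Dkk2, Dkk3 and Sfrp2 were low at both passages, and Fzd5, Fzd6 and Wnt4 were high at both.

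The remaining pathway was described through 5 lists of 113 genes in all. In iHepSCs against MEFs, 19 of the 113 were higher and 26 lower, beside 18.2% of all genes higher and 13.4% lower. In pHep against MEFs 19 were higher and 25 lower, beside 14.8% of all genes higher and 15.5% lower. The counts of each list below are to be read beside these same shares. Of 33 genes for Wnt secretion and surface modulation, 3 were higher and 13 lower in iHepSCs, with a median difference of -0.38. Porcn, the acyltransferase that adds the lipid to Wnt ligands, was at 9.60 and 10.65 on the iHepSC arrays, 7.98 on the pHep array and 6.32 to 7.58 on the MEF arrays (3.41 ± 0.45 in iHepSCs, adjusted p = 0.0021 in limma). Lgr4, a receptor for R-spondins, was higher in iHepSCs (1.53 ± 0.11) and so was Celsr1, a planar cell polarity cadherin (1.87 ± 0.20 in iHepSCs and 4.43 ± 0.26 in pHep).

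Of the 4 R-spondins, secreted proteins that enhance Wnt signalling through Lgr receptors, Rspo1, Rspo2 and Rspo3 were lower in iHepSCs, Rspo2 and Rspo3 were lower in pHep, and Rspo4 passed neither comparison (0.12 ± 0.12 in iHepSCs, adjusted p = 0.52 in limma). Rspo1, which like Rspo4 was named after its values were seen, was at 4.41 and 4.73 on the iHepSC arrays, 4.49 on the pHep array and 5.11 to 6.02 on the MEF arrays (adjusted p = 0.038 in limma in iHepSCs and 0.067 in pHep). Rspo2 was at 4.79 and 4.83 on the iHepSC arrays, 4.60 on the pHep array and 9.01 to 10.81 on the MEF arrays (-4.71 ± 0.53 in iHepSCs and -4.92 ± 0.69 in pHep). Rspo3 was at 4.99 and 4.55 on the iHepSC arrays, 5.53 on the pHep array and 8.32 to 10.74 on the MEF arrays (-4.22 ± 0.72 and -3.46 ± 0.93). Gpc4, a glypican, was lower in iHepSCs alone (-4.70 ± 0.33, and -0.67 ± 0.42 in pHep, adjusted p = 0.27 in limma), and Adgra2, a co-factor of Wnt7 signalling in brain vessels, was lower in both (-4.24 ± 0.14 and -2.03 ± 0.18). In pHep, Rnf43, a ligase that removes Frizzleds from the surface, was higher (3.12 ± 0.46) and Apcdd1, a Wnt inhibitor of the cell membrane, was lower (-5.09 ± 0.63), and neither passed the test in iHepSCs.

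Of 32 intracellular transducers, 4 were higher and 4 lower in iHepSCs, with a median of -0.02. Ctnnb1, which encodes beta-catenin, was at 13.81 and 13.96 on the iHepSC arrays, 14.01 on the pHep array and 13.51 to 13.69 on the MEF arrays, and its difference of 0.33 ± 0.11 in iHepSCs did not pass the test (adjusted p = 0.062 in limma). Amer1 (1.20), Dvl1 (0.93) and Tnks2 (0.93) were higher, and Prickle2 (-2.52), Dact1 (-2.05) and Csnk1g1 (-1.04) were lower. In pHep, Dact2 (2.81) and Daam1 (1.12) were higher and Prickle1 (-3.46) and Csnk1g1 (-1.62) lower. Of 18 nuclear effectors, 4 were higher and 2 lower in iHepSCs, with Hipk2, a kinase (2.64), and the co-repressors Tle3 (1.07) and Tle4 (0.82) higher and the repressor Tcf7l1 (-1.52) and Tle6 (-0.75) lower.

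Of 23 genes listed as Wnt targets, 2 were higher and 5 lower in iHepSCs, and 3 were higher and 6 lower in pHep. Of all genes, 31.6% and 30.3% were called in either direction in these comparisons. Axin2, a widely used readout of beta-catenin signalling, was at 6.98 and 6.70 on the iHepSC arrays, 6.68 on the pHep array and 8.93, 7.21, 6.98 and 7.27 on the MEF arrays, and passed neither comparison (-0.76 ± 0.56, adjusted p = 0.37 in limma, in iHepSCs). Lgr5 (-0.50 ± 0.50, adjusted p = 0.51) and Sp5 (-0.18 ± 0.13, adjusted p = 0.35) did not pass in iHepSCs either. Ccnd1 (0.91 ± 0.13) and Myc (0.74 ± 0.13) were higher in iHepSCs, and Ccn4 (-5.40 ± 0.33), Ccn5 (-3.27 ± 0.50) and Fosl1 (-1.58 ± 0.40) were lower. Many of these are also regulated by other pathways. Ccnd1 was lower in pHep (-1.47 ± 0.16), and Sox9 was higher in pHep (3.43 ± 0.27) and lower in iHepSCs (-1.25 ± 0.21).

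Of 18 perivenous hepatocyte genes, 6 were higher and 2 lower in iHepSCs, and 7 were higher and 3 lower in pHep. Glul, glutamine synthetase of the hepatocytes around the central vein, was at 13.65 and 13.90 on the iHepSC arrays, 12.35 on the pHep array and 10.25 to 10.35 on the MEF arrays (3.47 ± 0.11 in iHepSCs and 2.05 ± 0.14 in pHep). Cyp27a1 (5.42 ± 0.13 in iHepSCs and 3.73 ± 0.17 in pHep) and Rgn (2.04 ± 0.27 and 2.73 ± 0.35) were higher in both. Cyp1a2 was at 5.34 on both iHepSC arrays, 9.54 on the pHep array and 5.07 to 5.37 on the MEF arrays, and was higher in pHep alone (4.37 ± 0.15). Oat and Slc1a4 were lower in iHepSCs (-1.05 and -1.06) and in pHep (-2.41 and -1.03).

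**Figure D5:**
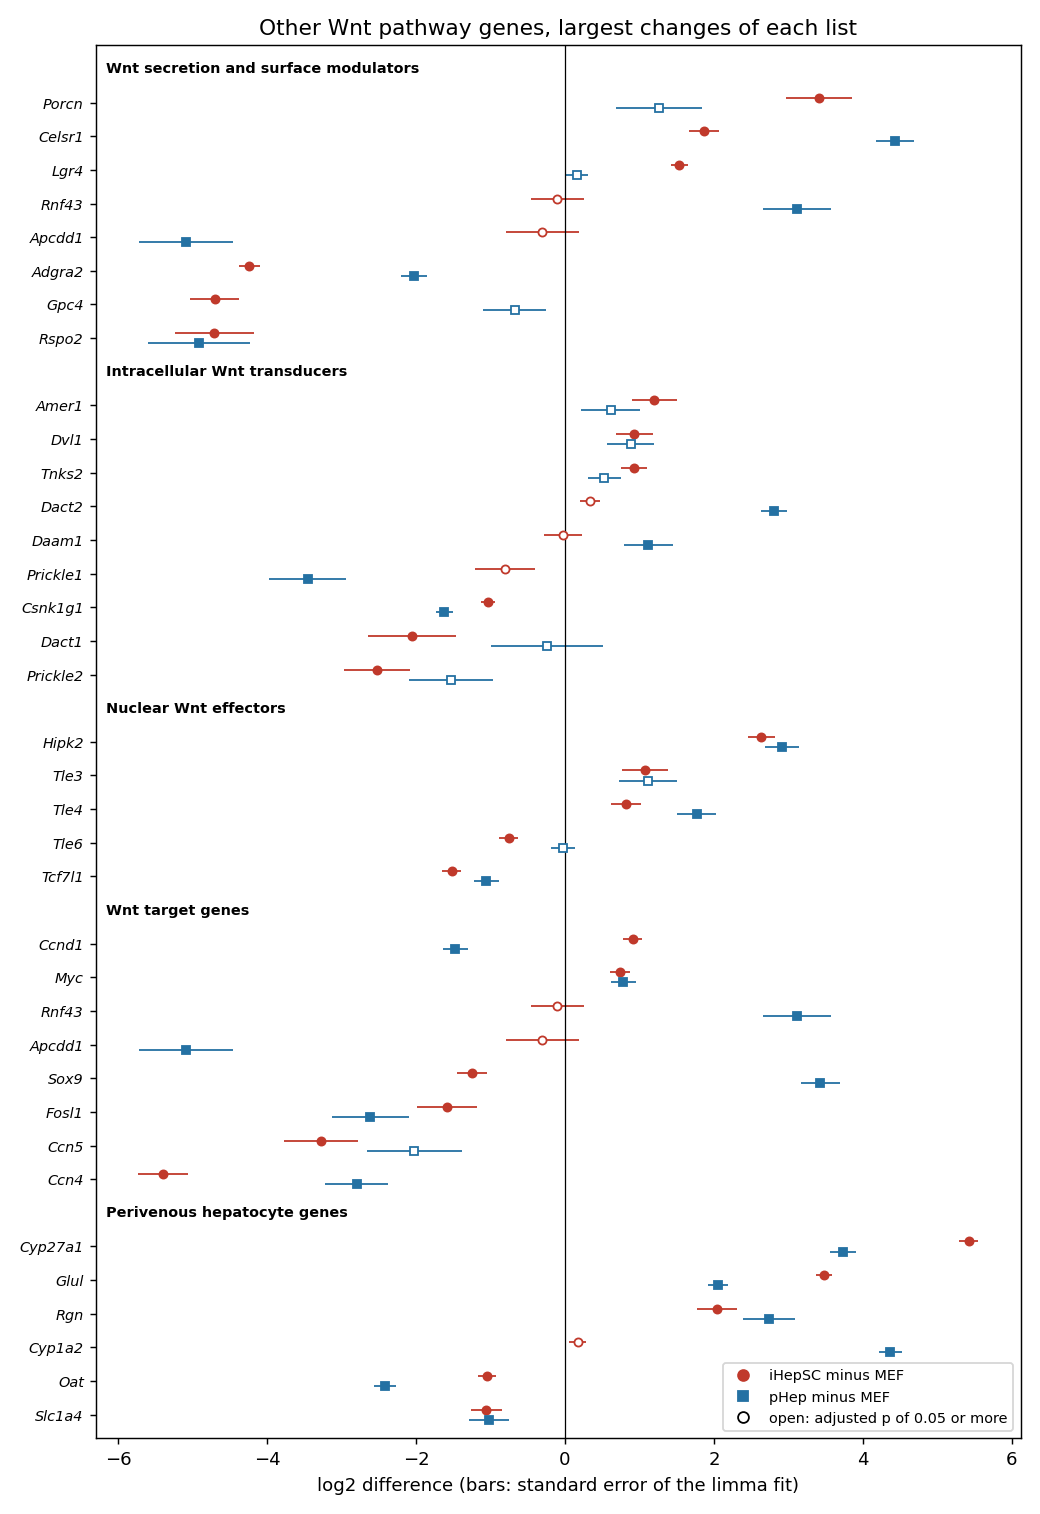
Log2 differences, iHepSC minus MEF (red circles) and pHep minus MEF (blue squares), of the pathway genes with the largest called changes of each list, with the standard error as bars and open symbols for an adjusted p of 0.05 or more. Rspo2, Adgra2, Ccn4 and Fosl1 lie below 0 in both comparisons, Glul, Cyp27a1 and Hipk2 above 0 in both, and Sox9 and Ccnd1 on opposite sides.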

How the data were processed

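Total RNA of iHepSCs (2 arrays), pHep (1 array) and MEFs (4 arrays) was hybridised to Affymetrix mouse expression arrays. The authors deposited log2 levels made by RMA, for 45101 probe sets. No RMA software version is given in the sources used here. The precision is limited by the number of arrays.

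Here the 64 control probe sets, 932 probe sets with several symbols and 9160 with none were left out. For a gene with several probe sets the one of highest mean was kept (18193 genes), without a filter on dim ones. The 3 groups were fitted in 1 model by limma (version 3.58.1, R 4.3.3; 1 mean per group over 7 arrays, 4 residual degrees of freedom, 2.11 prior degrees of freedom, prior SD 0.162), two-sided, with Benjamini-Hochberg adjustment over all genes and a threshold of 0.05. The fit was tried on simulated data with independent noise, of the same spread on every array for a given gene. Such data cannot check the outlying MEF replicate 1 or the spread assumed for the single pHep array. The members, lists and tests were chosen with earlier results of these data known. All 42 members are named; of each pathway list, up to 3 genes with the largest rise and fall past the test in iHepSCs, up to 2 in pHep, and Ctnnb1, Axin2, Lgr5, Sp5, Glul and Rspo3. Replicate numbers did not pair the samples, since those of iHepSCs are passages. Alternatives covered the probe set of a gene, the filter, the normalization, limma's prior, each array left out, MEF replicates 2 to 4 averaged, the replicate block, a minimum change and the methods' t-test.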

Additional observations from a re-analysis of the deposited data

Results flagged for a closer look

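In the MEF group, 1 array lay far from the other 3 for 11 of the 42 genes (26.2%), and in every case it was MEF replicate 1. Of all genes, 23.5% had 1 MEF array, whichever it was, far from the other 3. Chance alone would flag about 1 group in 20. The value on MEF replicate 1 was the highest for Dkk2 (10.21, against 8.42 to 8.66 on the others), Dkk3 (9.82, against 8.79 to 8.85), Fzd1 (12.09, against 10.21 to 10.30), Fzd5 (8.49, against 7.73 to 7.76) and Fzd6 (9.50, against 8.44 to 8.58). It was also the highest for Fzd7 (11.36, against 10.25 to 10.34), Sfrp1 (10.20, against 8.34 to 8.57), Wif1 (4.69, against 3.72 to 3.88), Wnt9a (9.07, against 7.46 to 7.67) and Wnt16 (8.19, against 5.98 to 6.07), and it was the lowest for Fzd4 (6.52, against 8.66 to 8.74). On the same array the fibroblast markers summed to 17.57, against 16.95 to 17.01 on the other MEF arrays, and the macrophage markers to 12.69, against 11.05 to 11.25; their part in these values was not tested.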

How the results depend on the processing

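Calls of iHepSCs against MEFs among the 42 genes were the steadier ones, though several fits lost some of them. With the replicate number as a block, a fit with 1 residual degree of freedom, 1 gene was higher and 5 lower in place of 6 and 11. Of all genes, that fit called 8.39% in this comparison, in place of 31.6%. With 1 MEF array left out, 5 to 8 of the 42 genes were higher and 10 to 15 lower, beside 24% to 55.8% of all genes called. With MEF replicates 2 to 4 averaged as 1 sample, 4 of the 42 were higher and 8 lower. Leaving out either iHepSC array also cost calls, as given for single genes above. The replicate block left 0 higher and 4 lower in pHep against MEFs and 0 and 0 in iHepSCs against pHep. Of all genes, 4.29% and 2.46% were called there, in place of 30.3% and 17.1%. The loss of calls with the block was thus general and not particular to the 42 genes. Of the 113 pathway genes, it left 6 higher and 11 lower in iHepSCs against MEFs and 5 and 3 in pHep against MEFs. In iHepSCs against pHep it left 0 and 2. The numbers do not pair the samples, since those of the iHepSC arrays stand for passages. The correlations of same-numbered deviations (-0.222 and -0.207) cannot decide this, because the deviations of 2 iHepSC arrays from their mean mirror each other. Centring on Gapdh moved the median of all genes to 0.50 in iHepSCs and -0.10 in pHep against MEFs. It gave 2 higher and 6 lower in pHep against MEFs, and 1 higher in iHepSCs against pHep. Of all genes, 16% and 12.4% were called in these 2 comparisons. Of the pathway genes it gave 13 lower in iHepSCs, 16 lower in pHep and 7 lower in iHepSCs against pHep. MEF replicates 2 to 4 averaged as 1 sample gave 1 higher and 6 lower in pHep against MEFs and 0 higher in iHepSCs against pHep. Of all genes, 11.9% and 8.1% were called there, and 14.8% in iHepSCs against MEFs. The same fit gave 8 higher and 15 lower pathway genes in iHepSCs, 12 and 12 in pHep, and 8 higher in iHepSCs against pHep. A minimum change of 1 gave 8 lower in pHep against MEFs, 1 higher in iHepSCs against pHep and 10 higher pathway genes in iHepSCs, by construction. Of all genes, it left 18.3% called in iHepSCs and 19% in pHep against MEFs, and 12.2% in iHepSCs against pHep. By the methods' t-test of iHepSCs against MEFs, 6 genes were higher and 12 lower before adjustment, and 5 and 9 after Benjamini-Hochberg adjustment. The share of all genes called by that test was not computed here. With all probe sets of a gene averaged, 4 genes were higher in iHepSCs against pHep, beside 18.6% of all genes called in either direction.

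With 1 array left out, 2 to 8 genes were higher and 9 to 20 lower in pHep against MEFs, and 0 to 11 higher and 2 to 7 lower in iHepSCs against pHep. Of the pathway genes, 9 to 33 were higher and 13 to 38 lower in iHepSCs, 17 to 37 higher and 19 to 43 lower in pHep, and 10 to 25 higher and 9 to 32 lower in iHepSCs against pHep. The highest counts in these ranges came without MEF replicate 1, which left 55.8% of all genes called in iHepSCs. Wnt5a, Dkk3, Sfrp2 and Fzd2 were called lower against MEFs in both cell types in all 17 alternative fits, and no called gene changed sign under any normalization.

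Wnt7a in iHepSCs against MEFs was 0.45 (adjusted p = 0.011 in limma) with all probe sets averaged and 1.02 on another probe set, against -0.04 on the chosen one. Reading other probe sets alone, chosen after seeing the data, also turned Fzd5 in iHepSCs (-0.11) and pHep (-0.41) against MEFs, Fzd3 in pHep against MEFs (-0.71), Lrp6 in iHepSCs against MEFs (-0.41) and against pHep (-1.46), and Wnt5a in iHepSCs against pHep (0.033). The median of passage 20 minus passage 3, also set after seeing the data, was 0.31 on Gapdh centring. The cause of these changes was not tested.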
